A study of Mus musculus with 6 samples.

Results

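This account covers 10 genes that are known to respond to glucocorticoid hormones or to FoxO transcription factors, out of 23282 entries in the count tables of mouse forebrain. The tables hold 1 entry for each of them, and all 10 passed the count filter that left 13771 genes for testing. They are the receptor genes Nr3c1 and Nr3c2, the glucocorticoid-induced genes Fkbp5, Tsc22d3, Sgk1, Klf9, Zbtb16 and Hif3a, the α-arrestin gene Txnip, and 8430408G22Rik, which current annotation calls Depp1. The genes were chosen by name, with results of the same diet comparison already known, and 8430408G22Rik was selected on its measured difference between the diets. The values below therefore describe the genes. No p-value is printed for any of the 10, and where a test across all genes counts them among its calls, the count is part of the description.

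RNA was taken from the whole forebrain of wild-type C57BL/6J male mice, 8–10 weeks old, with the olfactory bulbs and cerebellum removed. The 3 control libraries came from mice on a normal chow diet (NCD) and the other 3 from mice on a high-fat diet (HFD) with 60% of its calories from fat, each for 10 days. The forebrain was divided into hemispheres, which per the paper went to RNA sequencing and metabolomics. The labels do not say that the libraries of a diet came from separate mice, so the standard errors and p-values measure the spread between these libraries, which may be technical in part. Libraries were made with the QuantSeq kit, which primes on the poly(A) tail and reads the 3′ end of a transcript.

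Glucocorticoids released by the adrenal gland enter the brain and bind 2 receptors there, the glucocorticoid receptor encoded by Nr3c1 and the mineralocorticoid receptor encoded by Nr3c2. The bound receptor moves into the nucleus, binds short inverted repeats of DNA and switches on target genes, of which Fkbp5 and Tsc22d3 are among the best known. FoxO factors enter the nucleus when insulin signalling through Akt is low, as in fasting, and some genes, such as Klf9, respond to more than one of these signals. Txnip, which binds thioredoxin and limits glucose uptake, is also switched on by glucose through the Mondo factors.

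The total count lay between 6842785 and 9689372 per library, and a count of 3 corresponded to between 0.316 and 0.432 CPM (counts scaled to a common library size), a floor that covers counting error only. The markers fixed for neurons (summed level 6160 to 6490 CPM), astrocytes (4720 to 5170 CPM) and oligodendrocytes (7890 to 9560 CPM) were well detected in all 6 libraries. HFD replicate 3 stood apart in the anterior pituitary markers, with a summed level of 1260 CPM against 2.08 to 8.95 CPM in the other libraries. The liver markers summed to between 13.9 and 59.9 CPM on the NCD, the highest in NCD replicate 2, and between 10.3 and 16.8 CPM on the HFD. Of the 6 tested, 5 were lower on the HFD with an edgeR p below 0.05 before adjustment, beside 1.98% of all genes. The erythroid markers, which come from red blood cells, summed to between 610 and 738 CPM on the NCD. On the HFD they summed to between 762 and 1190 CPM, without overlap. A positive fold change was found in 7 of 7, and 6 of them had an edgeR p below 0.05 before adjustment, beside 1.71% of all genes. Hbb-bs and Hbb-b1 had close counts in each library, as had Hbb-bt and Hbb-b2, so the 7 are not separate measurements. Their sum may count some reads more than once. The other marker sums overlapped between the diets except for microglia and macrophages, at 495 to 498 CPM on the NCD and 506 to 533 CPM on the HFD.

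8430408G22Rik was the only one of the 10 genes whose HFD libraries all lay above its NCD libraries. It encodes a small protein first found in progesterone-treated decidua, and it is known as a FoxO target that rises on fasting. The gene lies on the plus strand of chromosome 6, from 116650609 to 116652794 of GRCm38, and its exons overlap those of no other annotated gene. In order of replicate number, the count was 14, 16 and 16 in the NCD libraries, while in the HFD libraries it reached 52, 40 and 42. As levels, these are 1.73, 1.73 and 1.69 CPM on the NCD and 7.49, 4.37 and 5.77 CPM on the HFD. The lowest HFD library stood well above the highest NCD library. The NCD mean was 1.71 ± 0.0239 CPM (SD, n = 3) and the HFD mean 5.88 ± 1.56 CPM (SD, n = 3), and the fold fitted by edgeR was 3.39, or 1.76 ± 0.34 (SE) on the log2 scale.

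The 3 NCD libraries of 8430408G22Rik lay closer together than the 3 HFD libraries. Pooled over both diets, the SD of its log2 CPM within a diet was 0.26, against 0.30 that counting error alone gives at these counts. The pooled value joins unlike spreads, with an SD of 0.0239 CPM on the NCD and 1.56 CPM on the HFD. Whether the HFD libraries alone spread beyond counting error was not tested. Among all genes tested, 6 had a log2 fold change at or above that of 8430408G22Rik, itself included. The largest of them, at 6.13, was Gh, the growth hormone gene of the pituitary, which had a count of 7943 in HFD replicate 3 and between 12 and 71 in the other libraries. Without HFD replicate 3, the log2 fold change of 8430408G22Rik was 1.77 ± 0.39 (SE). Over the fits that left out 1 library it ran from 1.55, without HFD replicate 1, to 1.94, without HFD replicate 2. The red blood cell markers were higher and the liver markers lower on the HFD, as given above, and their part in the difference was not tested. In whole-tissue RNA, fewer cells of a type and less RNA per cell cannot be told apart.

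**Figure D1:**
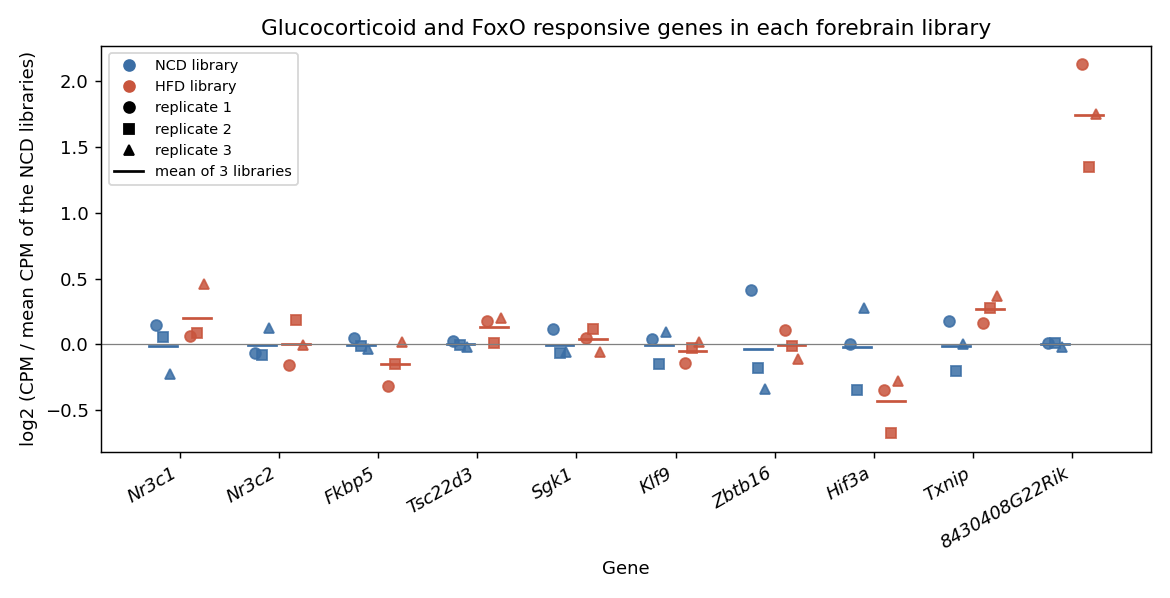
Level of each of the 10 genes in each library, as log2 of its CPM over the mean CPM of the 3 NCD libraries (vertical axis), by gene (horizontal axis). Blue marks NCD and red marks HFD libraries, the shape gives the replicate and the short line the mean of 3 libraries. The HFD libraries of 8430408G22Rik lie apart from its NCD libraries, while the diets overlap in the other 9 genes.

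A gene was called where the fold was 1.5 or more and the quasi-likelihood test of edgeR gave p below 0.05 before adjustment. By this rule 1 of the 10 genes, 8430408G22Rik, was called higher on the HFD and 0 were called lower, where 0.53% of all genes tested were called higher and 0.748% lower. All HFD libraries lay above all NCD libraries in 1 of the 10, against 4.31% of all genes, and all below in 0, against 4.49%. With edgeR's p-values adjusted by Benjamini-Hochberg over the 13771 genes, 0 of the 10 and 0% of all genes fell below 0.05. Before adjustment, 1 of the 10 was higher with p below 0.05, where 235 of all genes (1.71%) were, and 0 were lower, where 272 of all (1.98%) were. The adjusted p of DESeq2 was below 0.05 for 2 of all genes, of which 1 is among the 10. Since the genes were chosen with this comparison known, nothing is read from these counts.

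The other 9 genes had log2 fold changes between -0.43 and 0.28, with a median of 0.02. The median over all genes tested was 0.00, and the median size of a change, in either direction, was 0.12. With 8430408G22Rik included, the median was 0.03, and 7 fold changes were positive and 3 negative.

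**Figure D2:**
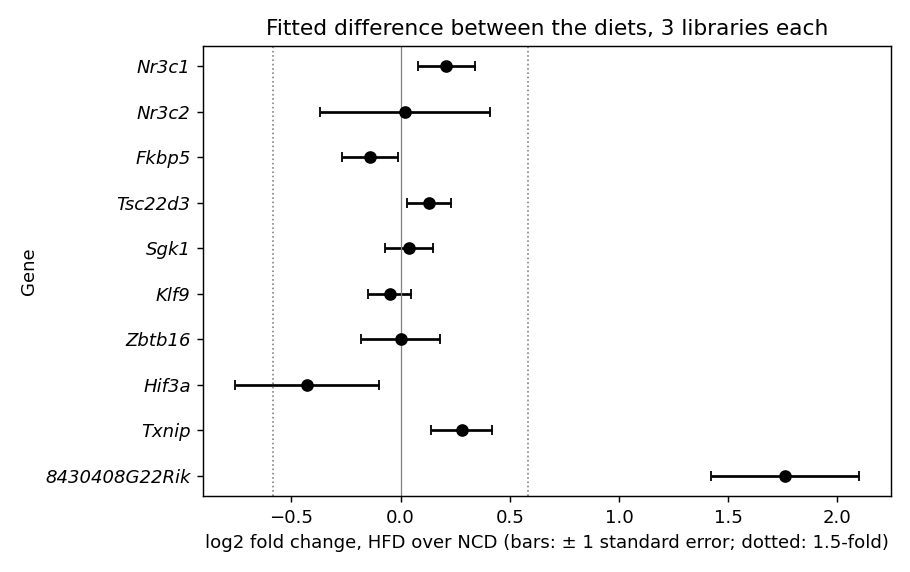
Log2 fold change of HFD over NCD for the 10 genes (horizontal axis) from edgeR's fit to 3 libraries of each diet, by gene (vertical axis), with bars of 1 standard error and dotted lines at a 1.5-fold change. 8430408G22Rik lies at 1.76 and the other 9 lie inside the 1.5-fold lines, between -0.43 for Hif3a and 0.28 for Txnip.

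Of the receptors, Nr3c1 encodes the glucocorticoid receptor, which is found in most brain cells and responds to high hormone levels. It lies on the minus strand of chromosome 18, from 39410545 to 39519421. Its level was 95, 89.3 and 73.4 CPM in the NCD libraries and 89.7, 91.1 and 118 CPM in the HFD libraries, from counts of 623 to 859. HFD replicate 3 was the highest, NCD replicate 3 the lowest, and the other 4 libraries lay close together. The log2 fold change was 0.21 ± 0.13 (SE), and without HFD replicate 3 it was 0.08 ± 0.11 (SE).

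Nr3c2 encodes the mineralocorticoid receptor, which binds corticosterone with high affinity and is strongest in the hippocampus. It lies on the plus strand of chromosome 8, from 76899442 to 77245012. Counts were low, at 15, 17 and 20 in the NCD libraries against 12, 20 and 14 in the HFD libraries, and levels were 1.93 ± 0.153 CPM (SD, n = 3) and 1.95 ± 0.23 CPM (SD, n = 3). The diets overlapped, with a log2 fold change of 0.02 ± 0.39 (SE). With a standard error this large, a moderate difference was not detectable at this depth. An exon of Gm10649 on the other strand overlaps Nr3c2, and since the use of strand in counting is not given in the sources used here, its count is uncertain.

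Fkbp5 encodes a co-chaperone that holds the glucocorticoid receptor in a state of low affinity, so that its induction by the hormone forms a short feedback loop. The gene lies on the minus strand of chromosome 17, from 28399094 to 28517527. It had 30.7, 29.4 and 28.9 CPM on the NCD and 23.9, 26.8 and 30.1 CPM on the HFD. HFD replicates 1 and 2 were below all NCD libraries, and HFD replicate 3 was among them. The log2 fold change was -0.14 ± 0.13 (SE), -0.22 ± 0.13 (SE) without HFD replicate 3 and -0.06 without HFD replicate 1.

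Tsc22d3, on the minus strand of chromosome X from 140539528 to 140600659, encodes the glucocorticoid-induced leucine zipper, which mediates part of the anti-inflammatory action of the hormone. Its level was 95.5, 93.4 and 92.8 CPM on the NCD and 106, 94.6 and 108 CPM on the HFD. HFD replicates 1 and 3 were above the NCD libraries, and HFD replicate 2 lay between NCD replicates 1 and 2. The log2 fold change was 0.13 ± 0.10 (SE) and ran from 0.10 to 0.19 with each library left out.

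Sgk1, on the plus strand of chromosome 10 from 21882184 to 21999903, encodes a kinase that glucocorticoids and mineralocorticoids induce and that phosphorylates FoxO factors and ion channel regulators. It had 84.1, 73.9 and 74.3 CPM on the NCD and 80.3, 84.1 and 74.4 CPM on the HFD. The 2 ranges nearly coincided, and the log2 fold change was 0.04 ± 0.11 (SE).

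Klf9, on the plus strand of chromosome 19 from 23141226 to 23168134, encodes a zinc finger factor that glucocorticoids and thyroid hormone induce in neurons. It had the highest counts of the 10, between 4326 and 6935, so that counting error was small. The level was 705, 619 and 731 CPM on the NCD and 623, 671 and 695 CPM on the HFD. NCD replicates 2 and 3 enclosed all HFD libraries, and the log2 fold change was -0.05 ± 0.10 (SE).

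Zbtb16, on the minus strand of chromosome 9 from 48654297 to 48836222, encodes a zinc finger repressor that is strongly glucocorticoid-induced in many tissues. It had 30.6, 20.3 and 18.2 CPM on the NCD and 24.8, 22.8 and 21.3 CPM on the HFD. NCD replicate 1 was the highest and NCD replicate 3 the lowest, so the spread within the NCD exceeded the difference between the diets. The log2 fold change was 0.00 ± 0.18 (SE), and it ran from -0.14 without NCD replicate 3 to 0.25 without NCD replicate 1.

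Hif3a, on the minus strand of chromosome 7 from 17031507 to 17062427, encodes a hypoxia-inducible factor subunit whose short forms restrain the others, and it rises with glucocorticoids in brain. The NCD libraries held 31, 28 and 44 counts of it and the HFD libraries 21, 22 and 23, which is 3.83, 3.02 and 4.64 CPM against 3.02, 2.4 and 3.16 CPM. NCD replicate 2 lay within the HFD libraries and the other NCD libraries above them. The log2 fold change of -0.43 ± 0.33 (SE) was the most negative of the 10, and was -0.26 without NCD replicate 3 and -0.57 without NCD replicate 2.

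Txnip, on the plus strand of chromosome 3 from 96557957 to 96561883, had 28.3, 21.8 and 25.1 CPM on the NCD and 28.1, 30.4 and 32.3 CPM on the HFD. Only NCD replicate 1 reached the HFD range, and it exceeded the lowest HFD library by little. The log2 fold change was 0.28 ± 0.14 (SE), between 0.18 without NCD replicate 2 and 0.37 without NCD replicate 1. With library size alone in place of TMM scaling, the diets did not overlap in Txnip, nor in Hif3a, where the HFD was the lower. An exon of Gm15441 on the other strand overlaps Txnip, so its count is uncertain in the same way as that of Nr3c2.

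Within the diets, the genes differed in how far the replicates lay apart. The SD of log2 CPM within a diet was highest for Zbtb16, at 0.29, where counting error alone gives 0.11, and was 0.21 for Nr3c1, where counting error gives 0.05. It was 0.08 for Tsc22d3, 0.10 for Sgk1, 0.11 for Klf9, 0.12 for Fkbp5 and 0.15 for Txnip. In Nr3c2 it was 0.13 and in Hif3a 0.25, where counting error alone gives 0.36 and 0.28. The prior count in log2 CPM narrows the spread of low counts, and the counting error was computed without it. Whether these 2 genes spread beyond counting was not tested. The median SD within a diet over all genes tested was 0.20.

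After subtraction of each diet's mean, the 45 pairs of genes had a median Pearson r of 0.06 over the 6 libraries, and 29 pairs had a positive r. The highest values were 0.83 for Txnip and Klf9, 0.81 for Sgk1 and Zbtb16, and 0.80 both for Fkbp5 and Nr3c1 and for 8430408G22Rik and Tsc22d3. The lowest were -0.86 for 8430408G22Rik and Nr3c2, -0.74 for Tsc22d3 and Nr3c2, and -0.45 for 8430408G22Rik and Fkbp5. The NCD libraries of 8430408G22Rik lay between 1.69 and 1.73 CPM, so its r values rest almost wholly on the 3 HFD libraries. The points of a pair share library and scaling, and Nr3c2 and 8430408G22Rik have low counts, so these values are descriptions. Tmem243, Cenpv and Dtnbp1 had the highest r with the mean profile of the 10 genes, 0.99 each, out of 9361 other genes with a mean of at least 10 CPM. With 6 libraries, 98 of these genes had an r above 0.9. The mean profile spanned only -0.09 to 0.10 on the log2 scale, and the 3 genes named are the highest of 9361. How many genes would reach such an r by chance was not tested, so nothing is read from these values.

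**Figure D3:**
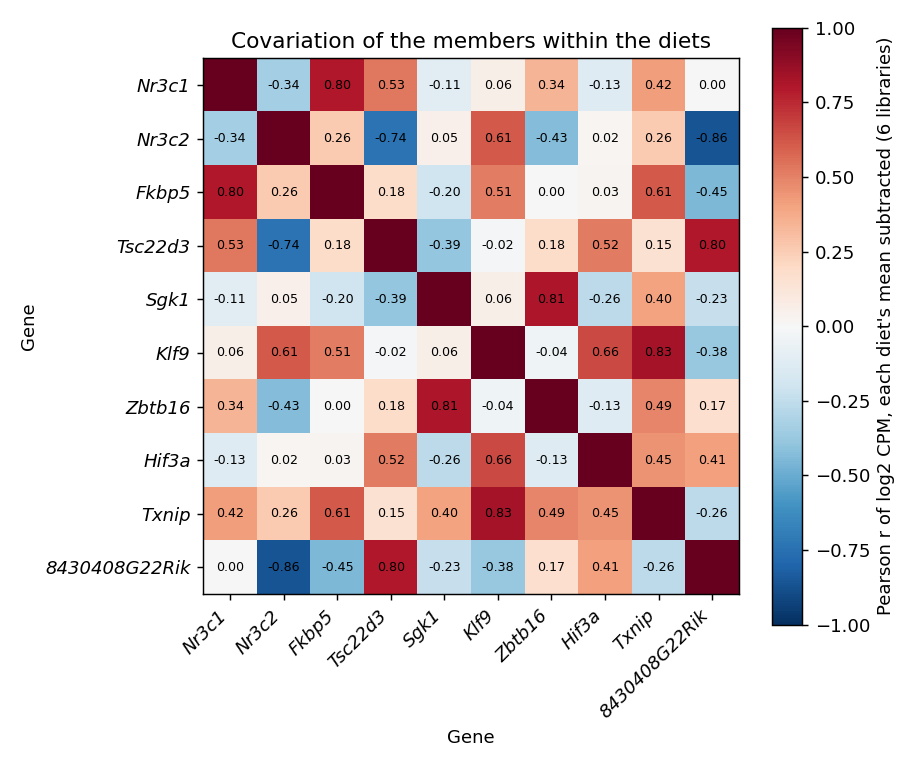
Pearson r between each pair of the 10 genes (both axes) over 6 libraries, of log2 CPM after each diet's mean was subtracted, with red for positive and blue for negative values. Positive and negative values are mixed, with a median of 0.06, and the highest is 0.83 for Txnip and Klf9.

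The promoters bear on how these genes are known to be switched on, and they were searched apart from the counts. RefSeq windows of 300 bases on GRCm38.p6, from 250 bases before to 50 after a transcript start, were at hand for 8 of the 10 genes in 15 windows, with none used for Zbtb16 and Nr3c1. On both strands, the single arm of the glucocorticoid receptor site, AGAACA, stood in 4 of these windows, of Sgk1 and Tsc22d3, and in 19% of all 32851 windows. The full inverted repeat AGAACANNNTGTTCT, which contains that arm in both directions, stood in 1 of the 15, a window of Sgk1, and in 3 of all windows, or 0.00913%. The FoxO core GTAAACA stood in the windows of Txnip and Klf9, which is 2 of the 15, and in 3.65% of all. The E-box CACGTG, the core of the sites that Mondo factors use, stood in windows of Sgk1, where it overlaps a single arm, and Fkbp5, and in 7.15% of all. None of the 4 motifs lies in the window of 8430408G22Rik, which says only that these letters are absent from it. That RefSeq window runs from 116650434 to 116650733, and the gene start given above, 116650609 from GENCODE, lies inside it. The 2 sources thus place the start differently, and the stretch printed below lies partly within the GENCODE gene.

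The stretches with the inverted repeat and the FoxO cores are shown with the motif in capitals, 5′ to 3′ on the plus strand, and that of Depp1 because its transcript carried the large difference. The repeat of Sgk1 begins 189 bases before the start of one of its 6 transcript starts in the table, the core of Txnip 121 bases and that of Klf9 100 bases before theirs. They lie at chr10:21993641-21993775, chr3:96557776-96557902, chr19:23141066-23141192 and chr6:116650564-116650683.
Sgk1: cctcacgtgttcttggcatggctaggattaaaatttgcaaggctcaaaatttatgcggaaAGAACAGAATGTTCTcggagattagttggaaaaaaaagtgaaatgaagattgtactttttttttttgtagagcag
Txnip: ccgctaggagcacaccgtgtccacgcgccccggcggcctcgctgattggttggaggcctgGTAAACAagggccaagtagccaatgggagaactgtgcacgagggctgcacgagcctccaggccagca
Klf9: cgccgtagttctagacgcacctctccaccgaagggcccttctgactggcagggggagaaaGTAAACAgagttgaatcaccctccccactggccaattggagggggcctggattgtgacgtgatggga
Depp1: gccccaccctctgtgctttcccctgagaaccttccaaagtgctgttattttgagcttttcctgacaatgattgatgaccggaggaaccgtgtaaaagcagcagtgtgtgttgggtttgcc
In these libraries the log2 fold changes of the 3 genes with a motif shown were 0.04 for Sgk1, 0.28 for Txnip and -0.05 for Klf9. That of 8430408G22Rik, with none, was 1.76, and this gene was selected on its difference. Nr3c2 and Hif3a, also with none of the 4 motifs, had 0.02 and -0.43. Tsc22d3, with a single arm, had 0.13, and Fkbp5, with an E-box, had -0.14. A relation of motifs to fold changes was not tested. A match of letters is not a measured binding site.

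The other genes of the same pathways were taken from 10 lists with 139 genes in the tables, of which 119 passed the count filter. Their median log2 fold change was 0.00, as over all genes tested. Before adjustment, edgeR's p was below 0.05 for 4 that were higher on the HFD (3.36%) and for 2 that were lower (1.68%), beside 1.71% and 1.98% of all genes. After adjustment over all genes there were 0 by edgeR and 0 by DESeq2. All HFD libraries lay above all NCD libraries in 7 of the 119 (5.88%, beside 4.31% of all genes) and below in 3 (2.52%, beside 4.49%). With a fold of 1.5 or more as well as p below 0.05, 2 were called higher, Arrdc4 and Sult1a1 (1.68%, beside 0.53%), and 0 lower (beside 0.748%).

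Among the 28 other glucocorticoid-induced genes tested, the median log2 fold change was -0.01, with 13 positive and 15 negative values. Glul, which makes glutamine in astrocytes, had a log2 fold change of -0.06 ± 0.08 (SE), and the metallothionein gene Mt1 one of 0.04 ± 0.09 (SE). Cebpd, a transcription factor of acute responses, had 10.9, 10.2 and 8.01 CPM on the NCD and 13.4, 14.8 and 12.6 CPM on the HFD, without overlap. Its log2 fold change was 0.49 ± 0.19 (SE), where edgeR gave unadjusted p = 0.0187 and adjusted p = 0.979. The p before adjustment of Cebpd was 0.0722 without NCD replicate 3 and 0.0756 without HFD replicate 2. Sult1a1, a sulfotransferase, had a log2 fold change of 0.61 ± 0.25 (SE), where edgeR gave unadjusted p = 0.0293 and adjusted p = 0.979, with overlapping diets. Its p before adjustment lay between 0.0595 and 0.103 without NCD replicate 2, NCD replicate 3, HFD replicate 2 or HFD replicate 3.

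Among the 20 other FoxO-induced genes tested, 9 log2 fold changes were positive and 11 negative, with a median of 0.00, and p before adjustment was below 0.05 for 0 of them. The mitophagy kinase gene Pink1 had a log2 fold change of -0.07 ± 0.10 (SE), and Gabarapl1, which builds autophagosomes, one of -0.01 ± 0.09 (SE). Tnfsf10 and Cdkn1b are named here after their values were seen. Tnfsf10, which encodes a death ligand, had the highest log2 fold change of the list, 1.04 ± 0.56 (SE). Its diets overlapped, with counts of 7 to 29. The cell cycle inhibitor gene Cdkn1b had a log2 fold change of 0.13 ± 0.11 (SE). It was the 1 gene of the 20 without overlap and higher on the HFD, beside 4.31% of all genes. Nothing is read from this count.

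Of the FoxO factors and the insulin route to them, 14 genes were tested, with a median log2 fold change of 0.01. Foxo1 itself was below all NCD libraries in all 3 HFD libraries, with 39.7, 39 and 30.5 CPM against 46.4, 42.3 and 46.5 CPM. Its log2 fold change was -0.31 ± 0.13 (SE), where edgeR gave unadjusted p = 0.0334 and adjusted p = 0.979. Without HFD replicate 3 it was -0.19 and p before adjustment was 0.113, and the p was 0.0923 without NCD replicate 1 and 0.0752 without NCD replicate 3. Quantile normalization with limma gave Foxo1 an unadjusted p of 0.0577. Akt1, a kinase that keeps FoxO factors out of the nucleus, had a log2 fold change of -0.18 ± 0.11 (SE). Foxo3, named here after its values were seen, was under the filter, with counts of 1 to 5 in all libraries.

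Thioredoxin, the α-arrestins and the Mondo factors, the partners and relatives of Txnip, had a median log2 fold change of 0.01 over 10 genes. Arrdc4 is the α-arrestin gene closest to Txnip in its known control by glucose. It had 4.94, 3.99 and 8.01 CPM on the NCD and 8.06, 12.1 and 8.52 CPM on the HFD, where the lowest HFD library barely exceeded NCD replicate 3. Its log2 fold change was 0.77 ± 0.27 (SE), where edgeR gave unadjusted p = 0.0126 and adjusted p = 0.979. Without HFD replicate 2 it was 0.55 and p before adjustment was 0.0996, and without NCD replicate 2 it was 0.56 and p was 0.0646. Arrdc1, another α-arrestin, had a log2 fold change of -0.58 ± 0.26 (SE), where edgeR gave unadjusted p = 0.0394 and adjusted p = 0.979, and its diets overlapped. Its p before adjustment was between 0.0537 and 0.155 without NCD replicate 1, NCD replicate 2, HFD replicate 1 or HFD replicate 2. It was 0.0598 with a replicate block and 0.0546 with DESeq2. Txn1 and Txn2, the thioredoxins, had log2 fold changes of 0.10 and 0.02.

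Over all alternatives the adjusted p ran from 0.56 to 1 for Arrdc4 and from 0.839 to 1 for Cebpd, Sult1a1, Foxo1 and Arrdc1. In the remaining lists 0 genes had p below 0.05 with edgeR before adjustment. The 16 receptor chaperones and coregulators had a median log2 fold change of 0.00, with 0.06 for Hsp90aa1 and -0.02 for Hsp90ab1, the chaperones that hold the free receptor. The 5 genes tested for steroid activation, inactivation and export had a median of -0.07, with 0.09 for Hsd11b1, which regenerates active hormone, and -0.07 for Abcb1a, which pumps it out at the blood-brain barrier. Other steroid receptors had a median of -0.06 over 3 genes, with -0.06 for Pgr, the progesterone receptor gene. The HIF family and its oxygen sensors had a median of -0.04 over 9 genes, with -0.14 for Arnt2 and 0.01 for Egln2. The 9 paralogs of Sgk1, Tsc22d3, Klf9 and Zbtb16 had a median of 0.00, with 0.00 for Tsc22d1 and -0.18 for Klf13.

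Of the stress axis peptides and receptors, 5 of 12 were tested, with a median log2 fold change of 0.11. Crh encodes the peptide with which the hypothalamus starts the axis, and was measured here over the whole forebrain, not the hypothalamus alone. Its NCD mean was 24 ± 2.7 CPM (SD, n = 3) and its HFD mean 24 ± 1.93 CPM (SD, n = 3). Crhbp, whose product binds the Crh peptide, had a log2 fold change of 0.11 ± 0.15 (SE). Pomc, the precursor of the pituitary hormone that acts on the adrenal gland, is named here after its values were seen. The NCD libraries held 25, 43 and 11 counts of it and the HFD libraries 14, 35 and 89, the highest in HFD replicate 3, where the pituitary markers were also highest.

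**Figure D4:**
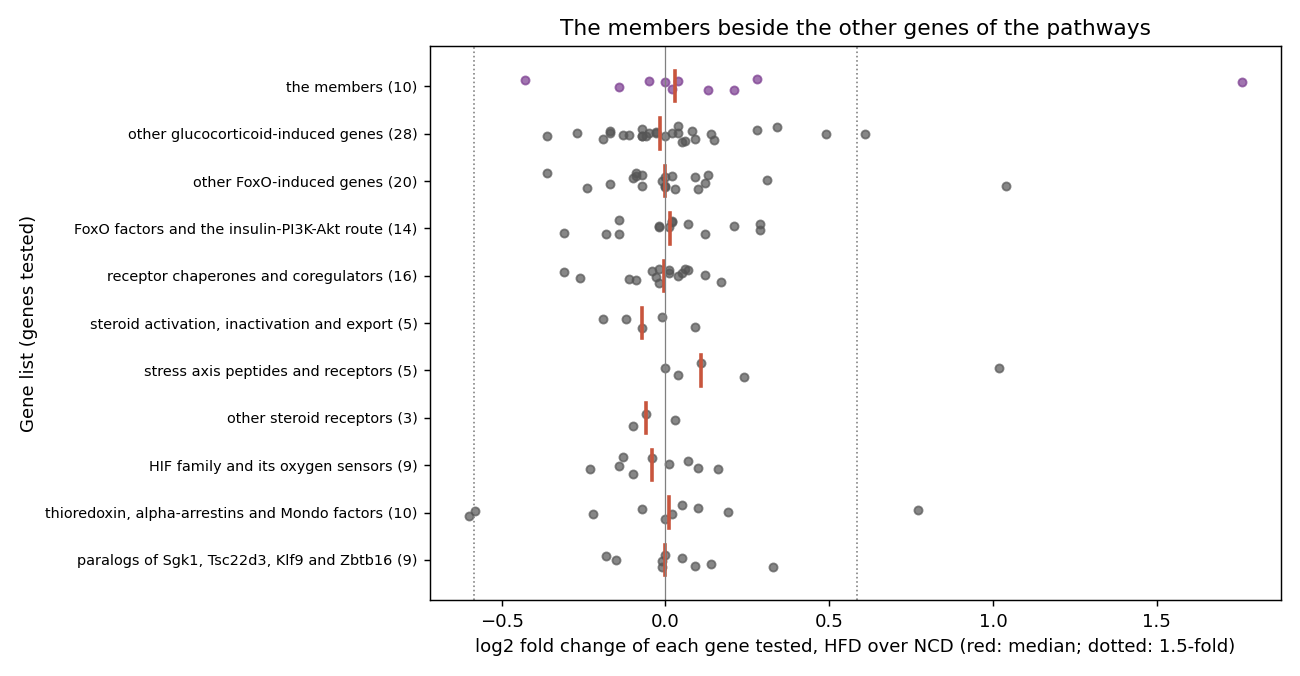
Log2 fold change of HFD over NCD (horizontal axis) for each gene tested, by list (vertical axis, with the number of genes tested), with the 10 genes described here in purple, a red line at each median and dotted lines at a 1.5-fold change. The medians lie between -0.07 and 0.11, and 8430408G22Rik, at 1.76, is the point farthest from 0.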

How the data were processed

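The 6 libraries of forebrain RNA were each deposited as a table of read counts per gene symbol. Per the methods and the submitters' processing notes, the authors removed adaptors, aligned reads to mm10 with Bowtie2 and took unique and multiple alignments into the counts with bedtools. The annotation and the use of strand are not given in the sources used here, and the quantile normalization that the authors describe is not in the deposited counts.

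Testing used edgeR 4.0.16 under R 4.3.3. filterByExpr (minimum count 10, minimum total count 15) kept 13771 genes, TMM scaled the libraries, and glmQLFit and glmQLFTest compared HFD with NCD without a covariate. Standard errors are the log2 fold change over the square root of F. CPM values use TMM library sizes, and log2 CPM a prior count of 2. Pairs of replicates differed beyond sampling noise (chi-square per degree of freedom 3.56 to 16.7). The 10 genes and the lists were chosen with earlier results of these data known. Named were all 10 genes and, of each pathway list, at most 4 genes with an unadjusted p under 0.05 and the 2 with the highest CPM, with the 3 highest and 3 lowest pairs by r and the 3 genes most like the mean profile. Genes named beyond this rule are marked in the text, and marker lists are given by sums and counts. Some genes that the rule names are not reported here. Alternatives were DESeq2 1.42.0, quantile normalization of log2(CPM + 1) with limma 3.58.1, library size alone, genes over 2% of counts left out, no filter, a minimum of 10 counts in all libraries, a replicate block, and the omission of each library in turn. The fits were tested on simulated data. Positions are from GENCODE vM21 and promoters from RefSeq, both on GRCm38. Proteins were not used here.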

Additional observations from a re-analysis of the deposited data

How the results depend on the processing

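Over 13 alternative settings, 129 of the 130 recomputed fold changes of the 10 genes moved by less than 1 SD of the replicates. The exception was 8430408G22Rik after quantile normalization of log2(CPM + 1), with a log2 fold change of 1.32 (2.5-fold), where the 1 CPM added before the logarithm lowers the fold of a gene at this level. Leaving 1 of 3 libraries out can hardly move a mean by 1 SD of those libraries. Nothing is therefore read from the part of those fits in the 129. The sign was kept in 4 of the 13 settings for Zbtb16, 9 for Nr3c2, 11 for Klf9 and 12 for Sgk1. For the rest it was kept in all 13. The count of called members stayed at 1 higher and 0 lower, and the median ran from 0.00 to 0.12 with each library left out. At an adjusted p under 0.05, DESeq2 gave 2 genes and 1 member, and the fit without a filter gave 23 genes and 1 member. Without a filter 156 genes were called higher and 240 lower, and the cause was not tested. With library size alone, 2 members were separate and higher and 1 was separate and lower. The share of all genes that were separate was not computed for that setting. Of the other pathway genes, 1 was called higher and 1 lower with library size alone. Quantile normalization gave 1 pathway gene higher.

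With each library left out, the genes called higher ran from 60 to 119, those lower from 101 to 145 and those with an adjusted p under 0.05 from 0 to 3. Members whose diets did not overlap ran from 1 to 6 higher, the most without NCD replicate 1. They ran from 0 to 2 lower, the most without NCD replicate 2. Any gene separates more easily with fewer libraries, and the count also varied with the library left out. The share of all genes without overlap was not computed for these fits, so nothing is read from these counts. Other pathway genes called, 2 higher and 0 lower with all libraries, ran from 1 to 3 higher and from 0 to 1 lower. The full glucocorticoid repeat was found for 1 gene, its single arm for 2.

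The replicate numbers are not said to mark a litter or day. Same-numbered libraries had correlations of -0.0295, 0.0515 and -0.0574, and only number 2 correlated best with its own. With a replicate block, 61 genes were called higher and 94 lower, with 1 member higher.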

Other observations

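The circadian clock genes, some of which respond to glucocorticoids, had a median log2 fold change of 0.00 over 14 genes tested, with values from -0.23 to 0.28, and 0 had p below 0.05 before adjustment. The hour at which tissue was taken is not given in the sources used here. Of 10 immediate early genes, whose transcripts rise within minutes of neuronal activity or handling, Npas4 was the 1 gene with p below 0.05 before adjustment by edgeR. It had 1.6, 2.37 and 5.37 CPM on the NCD and 1.87, 1.2 and 1.51 CPM on the HFD, or a difference of -1.05 on the log2 scale, where edgeR gave unadjusted p = 0.0399 and adjusted p = 0.979. Without NCD replicate 3 the difference was -0.40 and p was 0.422. The p was 0.128 without HFD replicate 2, 0.0755 without HFD replicate 3 and 0.0701 with a replicate block, and the adjusted p ran from 0.839 to 1 over the alternatives. Quantile normalization with limma gave Npas4 an unadjusted p of 0.0802.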
